A study of Mus musculus with 4 samples.

Results

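The genes described are 9 transcription factors of the immediate early response, chosen by name: the 4 Fos genes (Fos, Fosb, Fosl1 and Fosl2), the 3 Jun genes (Jun, Junb and Jund), Atf3 and Egr1. All 9 were present among the 45777 genes of the deposited files, and all 9 passed the filter on low counts. Total RNA was sequenced from 4 cultures of mouse gastric organoids, which are stomach epithelial cells grown in 3-dimensional culture. The 2 Smad4 Knockout libraries came from the lines CPS1 and CPS4 (titled CP3S1 and CP3S4), in which Cdh1, Trp53 and Smad4 are knocked out, and the 2 Control libraries came from the lines CPE and CPG (titled CP3E and CP3G), in which Cdh1 and Trp53 are knocked out. Both genotypes therefore lack E-cadherin (Cdh1) and p53 (Trp53) by label, and the genotypes differ by label in Smad4, the common partner of the receptor-activated SMAD proteins. Each line gave 1 library. The labels do not say how the genes were disrupted, which strain or age of mice the lines came from, or whether the knockout lines derive from the Control lines, so p-values measure the spread between these 4 libraries only. Organoids were kept in medium with 5% fetal bovine serum and L-WRN supernatant, and were then held for 2 days in B27 and N2 medium without either.

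Fos and Jun proteins pair through a leucine zipper to form the dimers called AP-1, which bind DNA at the sequence TGANTCA. Jun proteins also pair with each other, whereas Fos proteins need a Jun partner. Serum, growth factors and stress switch on most of these genes within minutes through MAP kinases, which act on ternary complex factors bound beside SRF and on Jun itself, and the transcripts decay quickly. SMAD3 and SMAD4 can bind AP-1, and several TGF-beta target genes carry sites for both. Atf3 is a stress-induced bZIP factor that can pair with Jun proteins, and Egr1 is a zinc finger factor that shares the upstream SRF route.

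Smad4 itself was at 54.4 and 52.9 CPM in the Smad4 Knockout libraries, against 94.5 and 103 CPM in Control. CPM here is a gene's count scaled to the TMM-adjusted size of its library. Its transcript was thus at 54.2% of the Control level and was still present (edgeR adjusted p = 0.677). A total over the whole gene does not check a deletion of part of it. Total counts ranged from 85649781 to 96402585 in the Smad4 Knockout libraries and from 92334224 to 99845702 in the Control libraries. The mitochondrial share of counts was 0.954% and 1.48% in the Smad4 Knockout libraries and 0.941% and 1.18% in the Control libraries, and the ribosomal RNA share was 0.243% and 0.562% against 0.242% and 0.389%, highest in Smad4 Knockout 2 for both. The epithelial keratins Krt8, Krt18 and Krt19 and the stomach claudin Cldn18 were abundant in all 4 libraries, with Krt8 between 3260 and 3582 CPM and Cldn18 between 248 and 255 CPM. Of the 11 gastric epithelial markers, 3 (Gkn1, Tff1 and Tff2) were higher in both knockout libraries (18.2% of all genes tested) and called by DESeq2 alone (0.701% of all genes tested), and Muc6, of gland mucous cells, had 0 counts in the knockout libraries against 0.163 and 0.129 CPM in Control. Of the fibroblast markers, Lum and Pdgfrb had 0 counts in all libraries and the summed level of the list was 0.552 and 0.291 TPM in the Smad4 Knockout libraries, against 0.655 and 1.04 TPM in the Control libraries. The 3 fibroblast markers tested of 8 (Pdgfra, Col1a1 and Col3a1) each lay lower in the knockout libraries without overlap, as did 18.6% of all genes tested. Summed squamous markers, of which 3 of 5 lay higher without overlap (18.2% of all genes tested did so), were at 9.75 and 13.5 TPM against 8.46 and 7.66 TPM, summed immune markers at 5.39 and 5.01 TPM against 4.75 and 4.68 TPM, of which Cd68 made up most and the T cell marker Cd3e had 0 counts. Summed endothelial markers were at 1.46 and 0.884 TPM against 1.59 and 1.58 TPM, and summed neural markers at 0.161 and 0.107 TPM against 0.155 and 0.303 TPM, with Sox10 and Elavl4 at 0. The part of these differences in the results on the 9 genes was not tested. In such bulk libraries, fewer cells of a type and less RNA per cell cannot be told apart.

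With edgeR's quasi-likelihood test and Benjamini-Hochberg adjustment over all 18115 genes tested, 0 of the 9 genes differed between the genotypes at an adjusted p of 0.05. The same held for all genes, of which 0 passed, or 0%. At an unadjusted p under 0.05, 3 of the 9 genes (Fos, Fosl1 and Junb) were lower in the Smad4 Knockout libraries and 0 were higher, against 3.04% of all genes tested on the lower side. In 5 of the 9 genes (Fos, Fosb, Fosl1, Jun and Junb) both Smad4 Knockout libraries lay below both Control libraries in CPM, where 18.6% of all genes tested did so. In 1 of the 9, Atf3, both lay above, where 18.2% of all genes did so. DESeq2 called 0 of the 9 as well, while it called 0.701% of all genes tested. The log2 fold change (Smad4 Knockout over Control) was below 0 in 8 of the 9 genes with a median of -0.19 (-0.37 without Smad4 Knockout 1, -0.09 without Control 2), and over all genes tested it was below 0 in 50.5% with a median of -0.00257. The members were chosen with earlier results of these data known, so these counts are a description.

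Levels of different genes were compared as TPM, which is scaled to gene length. By the deposited TPM, Junb was the most abundant of the 9 in every library, at 170.4 and 137 TPM in the Smad4 Knockout libraries and 203 and 182 TPM in the Control libraries, and its mean stood at the 96.3 percentile of the genes tested. Jund followed at 63.1 and 69.1 TPM against 66.6 and 68.04 TPM. By counts over GENCODE exon length, Jund exceeded Junb in Smad4 Knockout 2. Those lengths are not of the RefSeq gene models that the deposited genes follow, so that order mixes annotations. Below Junb and Jund in TPM stood Fosl2, Atf3, Fos and Jun, then Egr1 and Fosl1, with Fosb last at the 25.8 percentile. Over the 4 libraries the ranges of Fosl2 and Atf3 overlapped, as did those of Fos and Jun and those of Egr1 and Fosl1, so these pairs have no fixed order. In TPM, Junb, Jund and Fosb each lay clear of their neighbours.

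**Figure D1:**
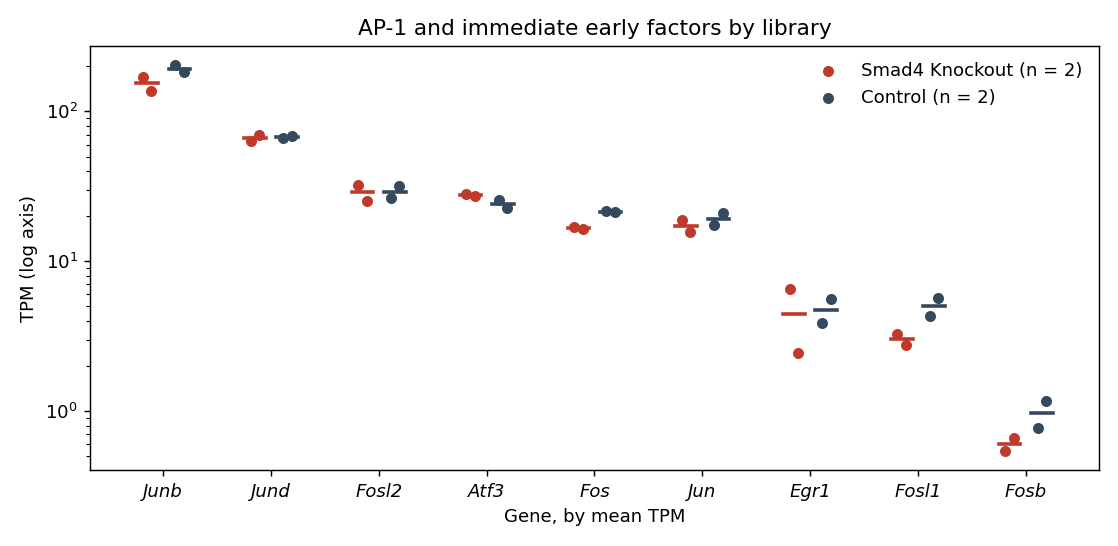
TPM of the 9 genes (log axis) in each library, with Smad4 Knockout libraries in red and Control libraries in blue, points for libraries and bars for group means (n = 2 each). By TPM, Junb is highest in all 4 libraries (137 to 203 TPM) and Fosb lowest (0.541 to 1.17 TPM).

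Among the Fos genes, Fos and Fosl1 were lower in both Smad4 Knockout libraries without passing the test over all genes. Fos (chromosome 12, 85473890 to 85477274 in GRCm38), the founding member of the family, is an unstable activator with up to 4 exons in the annotation. It was at 16.9 and 16.4 TPM in the Smad4 Knockout libraries, against 21.5 and 21.4 TPM in the Control libraries, from 1804 and 2115 counts against 2854 and 2515. The replicates of each genotype lay close together and the genotypes did not overlap. Its log2 fold change was -0.40 (SE 0.12, 95% interval -0.70 to -0.10, edgeR adjusted p = 0.677), while the replicates differed by 0.06 (Smad4 Knockout 2 over 1) and -0.10 (Control 2 over 1) on the same scale. The difference between the genotypes was thus larger than the replicate spread but did not pass the adjustment over all genes.

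Fosl1 (chromosome 19, 5447698 to 5455938) encodes FRA1, which lacks the strong activation domain of Fos and is itself a known AP-1 target in invasive epithelial cells. It was at 3.27 and 2.75 TPM in the Smad4 Knockout libraries, against 4.32 and 5.71 TPM in the Control libraries. Both knockout values lay below both Control values, and the log2 fold change was -0.77 (SE 0.23, 95% interval -1.33 to -0.21, edgeR adjusted p = 0.677). The replicates differed by -0.14 and 0.31. Fosl1 had only 282 and 286 counts against 464 and 543, and its span shares 2776 bases with Ccdc85b on the other strand, which had 9.03 and 9.54 CPM versus 9.35 and 9.48 CPM. The sources used here do not say whether the counting used strand, so reads of these 2 genes may have been shared.

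Fosb (chromosome 7, 19302696 to 19310118), best known for its stable splice form in neurons, was barely detected. It had 104 and 152 counts (0.541 and 0.66 TPM) in the Smad4 Knockout libraries, against 178 and 241 counts (0.774 and 1.17 TPM) in the Control libraries. The groups did not overlap, but the interval of the log2 fold change of -0.67 spanned 0 (SE 0.34, 95% interval -1.498 to 0.16, edgeR adjusted p = 0.832). Without Control 2 the value was -0.39.

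Fosl2 (chromosome 5, 32136472 to 32157840), which encodes FRA2, was the most abundant Fos gene in all 4 libraries by TPM. By counts over GENCODE exon length, Fos exceeded it in Control 1 (5.77% against 4.78% of the Fos and Jun genes together). On that scale the Fos and Fosl2 shares were level in Control 2 (5.85% each). That length, 9680 bases for Fosl2, joins the exons of all its GENCODE transcripts. It is not the length of the RefSeq model that the deposited gene follows, so that order mixes annotations. Fosl2 was at 32.3 and 25.2 TPM in the Smad4 Knockout libraries, against 26.4 and 31.7 TPM in the Control libraries. The genotypes interleaved, with the highest value in Smad4 Knockout 1 and the lowest in Smad4 Knockout 2. The log2 fold change was -0.05 (SE 0.13, 95% interval -0.37 to 0.27, edgeR adjusted p = 0.995), and it was 0.04 without Control 2 and 0.09 without Smad4 Knockout 2.

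Of the Jun genes, Junb was lower in both knockout libraries, Jun differed little and Jund interleaved. Junb (chromosome 8, 84976909 to 84978748) is a weaker activator than Jun and can oppose it. In CPM it was at 183.5 and 159 in the Smad4 Knockout libraries, against 240.6 and 202 in the Control libraries, from 15413 to 23570 counts. The lower Control value stood above the higher knockout value. Its log2 fold change was -0.37 (SE 0.13, 95% interval -0.70 to -0.04, edgeR adjusted p = 0.735), where replicates differed by -0.21 and -0.25. The value was -0.23 without Control 1.

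Jun (chromosome 4, 95049036 to 95052222) has 1 exon and is the strongest activator of the family. In CPM it was at 35.1 and 31.6 in the Smad4 Knockout libraries, against 35.5 and 40.5 in the Control libraries. The groups were separated by less than 1 CPM, and in TPM they overlapped, at 18.8 and 15.7 against 17.3 and 21.2. The log2 fold change of -0.19 (SE 0.13, 95% interval -0.51 to 0.13, edgeR adjusted p = 0.884) was no larger than the 0.19 between the Control libraries, and it was -0.09 without Control 2. Jund (chromosome 8, 70697739 to 70700616), which is expressed in resting cells and little induced by serum, had 106 and 125 CPM versus 123 and 118 CPM. Its log2 fold change was -0.06 (SE 0.12, 95% interval -0.35 to 0.23, edgeR adjusted p = 0.995), and 0.05 without Smad4 Knockout 1.

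Outside the Fos and Jun genes, Atf3 was slightly higher and Egr1 split the knockout lines. Atf3 (chromosome 1, 191170296 to 191183333) was at 28.2 and 27.2 TPM in the Smad4 Knockout libraries, against 25.6 and 22.6 TPM in the Control libraries. In CPM it was at 32.6 and 33.8 against 32.5 and 26.8, so that Smad4 Knockout 1 and Control 1 were nearly equal and Control 2 was low. The log2 fold change was 0.16 (SE 0.14, 95% interval -0.17 to 0.50, edgeR adjusted p = 0.935), smaller than the -0.28 between the Control libraries, and 0.03 without Control 2. It was the 1 gene of the 9 above 0. In GENCODE the spans of Junb, Jun, Jund and Atf3 overlap Prdx2, Junos, Gm11175 and Gm24748 on the other strand. By the RefSeq coordinates used here, Fosl1 alone of the 9 overlaps another gene. Whether reads were shared at Junb, Jun, Jund or Atf3 was not tested.

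Egr1 (chromosome 18, 34861207 to 34864956) was at 6.48 and 2.45 TPM in the Smad4 Knockout libraries, against 3.89 and 5.62 TPM in the Control libraries. Smad4 Knockout 1 had the highest and Smad4 Knockout 2 the lowest value of all, a difference of -1.30 in log2 CPM between lines of 1 genotype. Of the 9 genes Egr1 had the widest range over the libraries, 2.46-fold from lowest to highest. Its log2 fold change of -0.14 (SE 0.42, 95% interval -1.18 to 0.90, edgeR adjusted p = 0.995) rested on the choice of knockout line: leaving out Smad4 Knockout 1 gave -0.93, and leaving out Smad4 Knockout 2 gave 0.38.

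**Figure D2:**
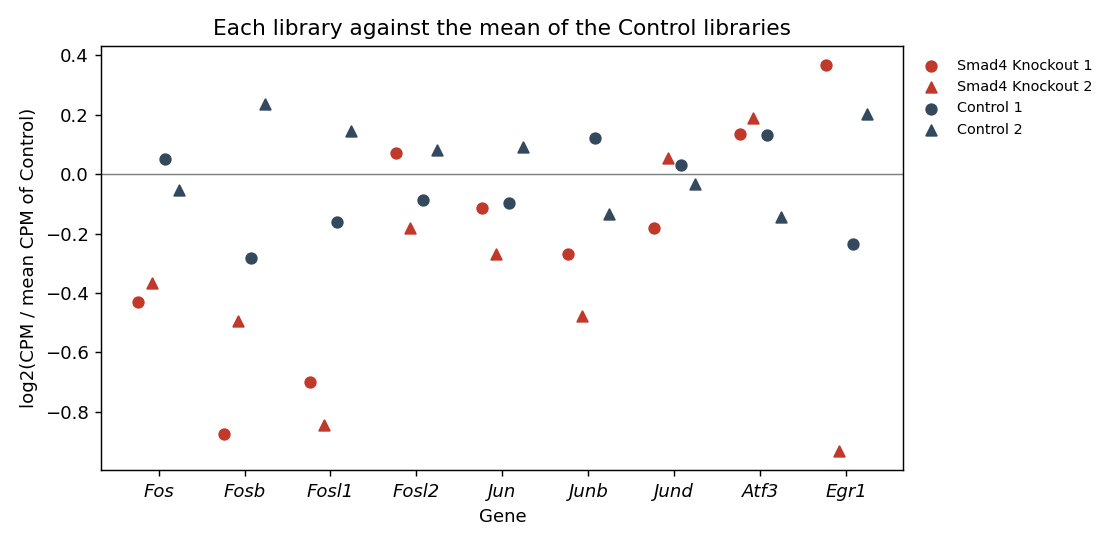
Log2 of CPM over the mean of the Control libraries, for each gene and each of the 4 libraries (red, Smad4 Knockout; blue, Control; circles and triangles are replicates 1 and 2). Fos, Fosb, Fosl1 and Junb, and Jun by a narrow margin, have both red points below both blue points, whereas the red points of Egr1 lie at 0.37 and -0.93.

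**Figure D3:**
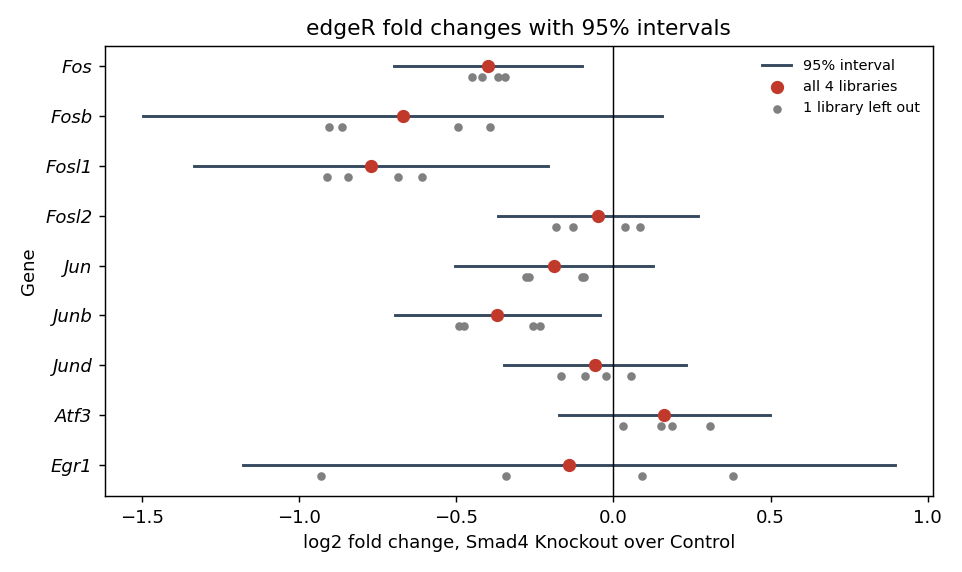
edgeR log2 fold change of each gene, Smad4 Knockout over Control (red point), with its 95% interval (line) and the values with 1 library left out (grey points). The intervals of Fos, Fosl1 and Junb lie below 0 before adjustment over all genes, and those of the other 6 genes span 0.

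Summed over the 4 Fos genes the level was 53.04 and 45.1 TPM in the Smad4 Knockout libraries, against 52.9 and 59.97 TPM in the Control libraries. The 3 Jun genes together were at 252 and 222 TPM, against 287 and 272 TPM, so the Jun sums did not overlap and the Fos sums did. Jun transcripts outnumbered Fos transcripts 4.76-fold and 4.93-fold in the Smad4 Knockout libraries, against 5.43-fold and 4.53-fold in the Control libraries, a ratio that did not separate the genotypes. Junb made up 53.6% ± 3.11 of the summed TPM of the 7 genes in the Smad4 Knockout libraries and 57.4% ± 3.38 in the Control libraries (SD, n = 2 each), and Jund 23.3% ± 3.67 and 20.04% ± 0.679. Fosl1 made up 1.05% ± 0.0297 and 1.5% ± 0.32. No test was run on these sums, since 0.333 is the smallest two-sided p that exact permutation of 2 and 2 libraries allows. The shares depend on the gene length used. With counts over the GENCODE exon length in place of TPM, Junb averaged 42.4% in the Smad4 Knockout libraries and 46.6% in Control. Jund then averaged 39.5% and 35.1%. On that scale Jund exceeded Junb in Smad4 Knockout 2 (42.97% against 39.6%), and Junb was the larger in the other libraries. The deposited genes follow RefSeq models, in which Jund starts at 70697739. GENCODE starts it later, at 70698949, with 1668 exon bases. Shares on the GENCODE scale thus mix annotations, and the reversal does not bear on the order by TPM.

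**Figure D4:**
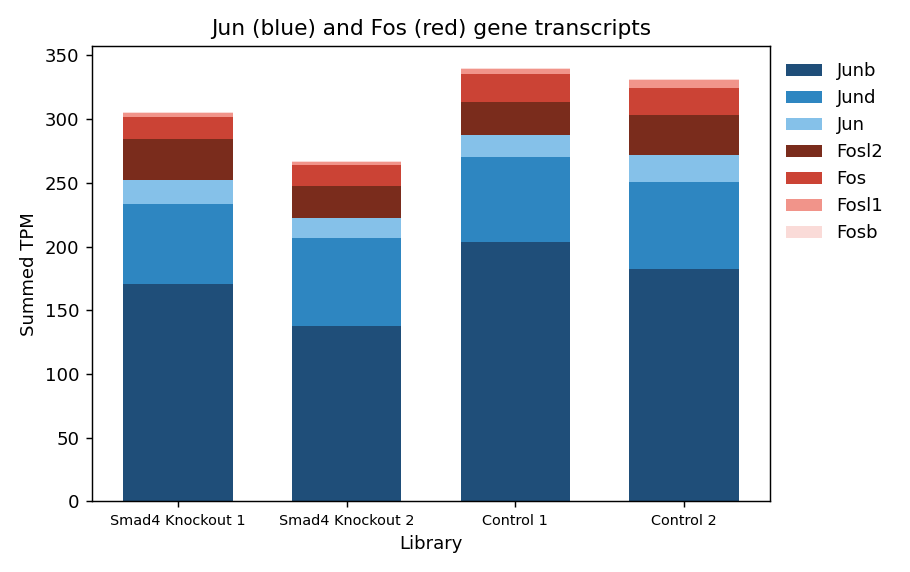
Summed TPM of the 3 Jun genes (blue) and the 4 Fos genes (red) in each library, Smad4 Knockout libraries at left. By TPM, Junb is the largest block in each bar. Jund exceeds it in Smad4 Knockout 2 only with counts over GENCODE exon lengths, which are not those of the RefSeq models. The Jun genes reach 252 and 222 TPM in the knockout libraries against 287 and 272 TPM in the Control libraries.

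The stretch before the start site of genes with separated groups was read for the sites by which these factors regulate one another. Among the 9 genes, 7 have an entry in the RefSeq promoter table (GRCm38.p6), and the 250 bases before the annotated start were searched on both strands. The windows of the genes with an entry whose groups did not overlap are shown, Fos, Fosb, Jun and Junb of those that lay lower and Atf3, which lay higher, written 5′ to 3′ along the gene, with motif matches in capitals.
Fos (chr12:85473640-85473889, plus strand): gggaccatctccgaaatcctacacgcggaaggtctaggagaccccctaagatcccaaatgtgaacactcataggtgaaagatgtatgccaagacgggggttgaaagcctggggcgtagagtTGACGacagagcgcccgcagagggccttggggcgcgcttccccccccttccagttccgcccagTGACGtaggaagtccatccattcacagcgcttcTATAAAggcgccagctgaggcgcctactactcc
Fosb (chr7:19310046-19310295, minus strand): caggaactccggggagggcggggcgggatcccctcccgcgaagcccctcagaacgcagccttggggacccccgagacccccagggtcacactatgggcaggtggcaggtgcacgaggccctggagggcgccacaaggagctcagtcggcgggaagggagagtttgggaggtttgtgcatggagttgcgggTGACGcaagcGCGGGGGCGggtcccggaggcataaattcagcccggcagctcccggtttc
Jun (chr4:95052223-95052472, minus strand): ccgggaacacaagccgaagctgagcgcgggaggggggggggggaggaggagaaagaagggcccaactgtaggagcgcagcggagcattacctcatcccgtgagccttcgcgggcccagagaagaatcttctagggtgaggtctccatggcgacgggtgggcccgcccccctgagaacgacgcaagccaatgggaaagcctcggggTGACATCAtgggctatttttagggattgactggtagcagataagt
Junb (chr8:84978749-84978998, minus strand): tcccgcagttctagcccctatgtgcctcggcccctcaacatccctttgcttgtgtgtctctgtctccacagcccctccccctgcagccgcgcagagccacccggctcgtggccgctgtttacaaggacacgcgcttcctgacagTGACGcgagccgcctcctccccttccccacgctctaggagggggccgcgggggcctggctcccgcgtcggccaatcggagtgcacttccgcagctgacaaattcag
Atf3 (chr1:191183334-191183583, minus strand): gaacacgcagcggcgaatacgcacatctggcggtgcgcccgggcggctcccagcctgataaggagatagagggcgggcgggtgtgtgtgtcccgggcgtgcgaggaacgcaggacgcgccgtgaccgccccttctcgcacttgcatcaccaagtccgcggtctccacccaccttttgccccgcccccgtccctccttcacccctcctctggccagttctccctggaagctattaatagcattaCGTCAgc

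The capitals mark TGACG, the core of the cAMP response element to which CREB and ATF proteins bind, TATAAA, the TATA box, GCGGGGGCG, a site of the EGR family, and TGACATCA, the site through which Jun is known to regulate its own gene. TGACG, which lies within TGACGTCA, was added to the search after the windows were read. It occurs in 4 of the 7 windows (Fos, Fosb, Junb and, read as CGTCA, Atf3, but not Jun, Fosl2 or Jund) and in 17.9% of the 27025 windows of all genes. The shares over all windows given here are not matched for base content. The 4 windows with TGACG were 58.4% (Fos) to 68.8% (Fosb) G and C, against a median of 52% over all windows. Those without it were at 61.2% (Jun), 64.4% (Fosl2) and 47.6% (Jund). Fos holds it 2 times, at 66 to 62 and at 129 to 125 bases before the start, Fosb at 60 to 56, Junb at 106 to 102 and Atf3 at 7 to 3. TATAAA stands 33 to 28 bases before the start of Fos, and 13% of all windows hold it. GCGGGGGCG stands 50 to 42 bases before the start used for the Fosb window and 79 to 71 before that used for Fosl2. Of all windows, 2.56% hold it. In Jun, TGACATCA stands 45 to 38 bases before the start, and 3.02% of windows hold it. In these 7 windows there was no match for TGANTCA (6.87% of all windows), TGACGTCA (1.62%), the CArG box of SRF (1.4%), the ETS site ACCGGAAG (1.7%), GTCTAGAC (0.174%) or the short SMAD site CAGACA (17.1%). Sites further from the start, such as the known SRF site of Fos, lie outside the windows. The Jund window is set by a RefSeq start at 70697739, upstream of the GENCODE start at 70698949. The Fosb window begins at 19310046, inside the RefSeq span of that gene, which reaches 19310118. Its TGACG and GCGGGGGCG matches lie within that span, so they precede only a start further into the gene. The windows of Fosl2 and Atf3 lie inside the longer GENCODE spans of these genes, which reach 32135801 and 191218039.

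The pathway around these genes was followed in lists that name some known members of each step. In edgeR 0 genes of these lists passed at an adjusted p of 0.05, and values are given for the genes with the smallest p in each list. Of 39 other immediate early genes tested, 28 had a log2 fold change below 0 (median -0.16), 16 were lower without overlap and 2 higher (18.6% and 18.2% of all genes tested), and DESeq2 called 1, Rhob (0.701% of all genes tested). Rhob, a GTPase that acts on the actin skeleton, had 38.3 and 34.6 CPM in the Smad4 Knockout libraries against 55.9 and 56.3 CPM in the Control libraries. Ccn1, a matricellular protein and also a YAP target, had 112 and 92.9 CPM versus 167 and 134 CPM. Ier3, a survival factor, had 183 and 150.2 CPM versus 238 and 197 CPM, and Nfkbia, the inhibitor of NF-kB, had 63.4 and 55.04 CPM versus 73.9 and 73.8 CPM. Zfp36, whose protein speeds the decay of AU-rich transcripts such as Fos, lay on the other side, with 5.32 and 7.24 CPM against 3.62 and 4.26 CPM (log2 difference 0.67 ± 0.24 SE, edgeR adjusted p = 0.735). Leaving out Smad4 Knockout 2 gave a list median of -0.05, and leaving out Smad4 Knockout 1 gave -0.28.

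Upstream, 10 of 14 SRF, ternary complex, RSK and Nab genes and 17 of 24 Ras and MAP kinase genes had log2 fold changes below 0, with medians of -0.10 (-0.23 without Smad4 Knockout 1) and -0.08 (-0.04 without Control 2, -0.03 without Smad4 Knockout 2). Elk3, a ternary complex factor that can repress Fos, had 52.3 and 40.5 CPM in the Smad4 Knockout libraries and 70.1 and 66.2 CPM in Control (log2 difference -0.55 ± 0.15 SE, edgeR adjusted p = 0.677). The related Elk1 had 10.3 and 10.98 CPM against 11.8 and 14.8 CPM. The kinases Rps6ka4 (MSK2), with 85.8 and 77.7 CPM versus 119.9 and 95.4 CPM, and Rps6ka2 (RSK3), with 16.6 and 12.1 CPM versus 20.3 and 20.5 CPM, were also lower in both knockout libraries. Srf interleaved, with 47.1 and 43.1 CPM versus 46.8 and 51.6 CPM, as did Rps6ka1, the most abundant of that list, with 128 and 147 CPM versus 142 and 138 CPM. Among the kinases, Araf had 46.4 and 49.6 CPM versus 56.3 and 62.4 CPM. Map2k2 (MEK2) had 96.7 and 93.6 CPM against 112 and 106 CPM, Mapk9 (JNK2) 42.9 and 39.9 CPM against 49.6 and 46.7 CPM, and Hras, the most abundant, interleaved.

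Among 26 other bZIP factors tested, 17 were below 0 (median -0.07, and 0.013 without Smad4 Knockout 2). Maff, a small Maf protein without activation domain, was at 52.5 and 46.03 CPM in the Smad4 Knockout libraries against 62.3 and 60.1 CPM in the Control libraries. Maf had 1.03 and 5.04 CPM versus 0.316 and 0.55 CPM, high mainly in Smad4 Knockout 2 (log2 difference 2.81 ± 0.79 SE, edgeR adjusted p = 0.677, and 1.26 without that library), and DESeq2 called it. Nfe2l2, which encodes the antioxidant regulator NRF2, had 156 and 189.9 CPM versus 139 and 142 CPM, and Crem had 10.8 and 12.9 CPM versus 8.46 and 9.59 CPM.

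Genes known as AP-1 targets had the lowest median of the pathway lists, -0.29 against -0.00257 over all genes tested, with 31 of 38 tested below 0. Both knockout libraries lay below both Control libraries in 22 of them and above in 0, where 18.6% of all genes tested lay below and 18.2% above. In edgeR 0 of the 38 passed. Timp1, an inhibitor of matrix proteases, was at 10.5 and 7.13 CPM in the Smad4 Knockout libraries against 16.7 and 15.3 CPM in the Control libraries (log2 difference -0.86 ± 0.22 SE, edgeR adjusted p = 0.677). Plau, the urokinase gene, had 72.5 and 62.8 CPM versus 97.7 and 89.2 CPM (log2 difference -0.47 ± 0.12 SE), and the cytokine gene Csf2 had 6.28 and 3.45 CPM versus 11.3 and 9.45 CPM (-1.09 ± 0.31 SE). Sprr1a, a cornified envelope protein, had 62.7 and 66.2 CPM versus 82.9 and 80.9 CPM (-0.35 ± 0.10 SE), and it differed little between the knockout lines. Clu, the most abundant of the list, had 5317 and 5052 CPM versus 5896 and 5874 CPM. Leaving out Smad4 Knockout 2 gave a list median of -0.16, and leaving out Smad4 Knockout 1 gave -0.37. Several members are also known SMAD targets, so the list does not stand for AP-1 alone.

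Of 12 tested genes known as Egr1 targets, 8 were below 0 (median -0.16, or -0.04 with Smad4 Knockout 2 left out and -0.50 with Smad4 Knockout 1 left out). Pdgfb was at 63.7 and 40.1 CPM in the Smad4 Knockout libraries against 90.4 and 86.6 CPM in the Control libraries (log2 difference -0.77 ± 0.22 SE), and Fn1, the fibronectin gene, had 547 and 284 CPM versus 467 and 676 CPM. Vegfa, which is in both target lists, had 73.6 and 53.04 CPM versus 109.8 and 86.02 CPM (-0.63 ± 0.20 SE). F3, the tissue factor gene, had 144 and 116 CPM versus 165 and 148 CPM. Of the 12 stress genes around Atf3, 10 were below 0 (median -0.16, and -0.03 without Control 1 or -0.04 without Smad4 Knockout 2), where Sesn2 had 5.83 and 6.77 CPM versus 8.8 and 9.38 CPM and Asns had 139 and 177 CPM versus 136 and 99.4 CPM. Chac1 had 4.11 and 4.33 CPM versus 6.04 and 4.7 CPM. Ppp1r15a, a phosphatase subunit, had 30.3 and 19.8 CPM versus 30.2 and 30.2 CPM, and Atf4, the upstream regulator, interleaved. Ddit3, which encodes CHOP, was nearly level with 4.49 and 4.73 CPM versus 4.81 and 4.61 CPM. Heat shock genes, which rise with immediate early genes when tissue is dissociated, were at summed levels of 6648 and 6577 TPM in the Smad4 Knockout libraries and 6770.3 and 6417 TPM in the Control libraries. Their median log2 fold change was -0.04 (-0.09 without Control 1, -0.10 without Control 2). Hsp90ab1 had 1716 and 1828 CPM versus 1985 and 1922 CPM, and Hspa1b had 176 and 162 CPM versus 179.7 and 182 CPM. The co-chaperone Bag3 had 10.1 and 6.8 CPM versus 9.59 and 14.4 CPM, Dnajb4 had 27.2 and 23.6 CPM versus 28.3 and 32.2 CPM, and Hspa8, the most abundant, interleaved.

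**Figure D5:**
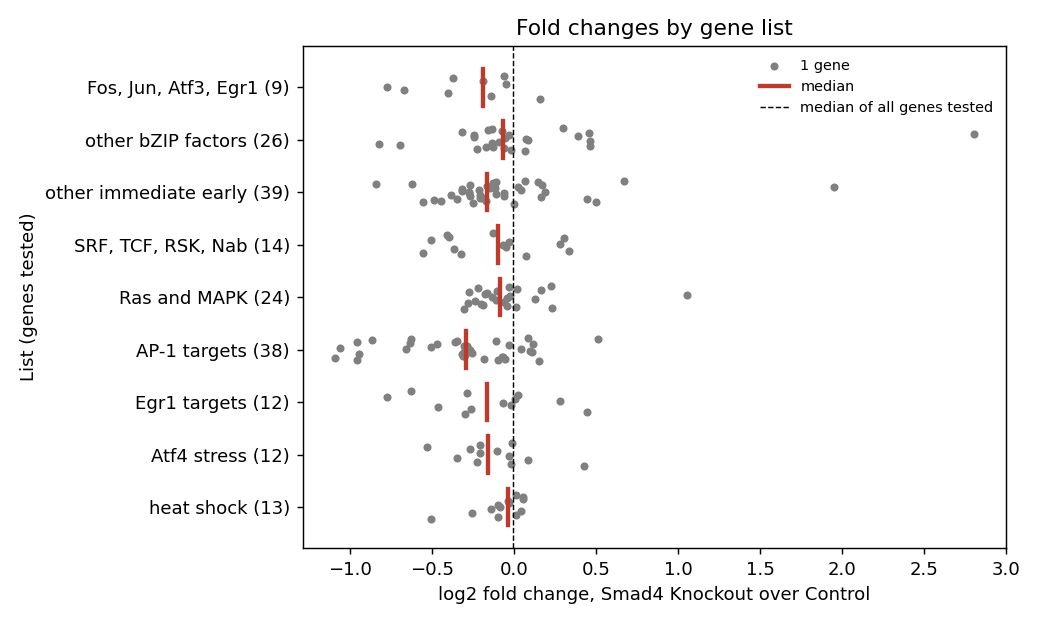
edgeR log2 fold change (Smad4 Knockout over Control) of each tested gene in the 9 factors and 8 lists of related genes, with list medians in red and the median of all genes tested as a dashed line. The AP-1 target list has the lowest median, -0.29, and the heat shock list the one nearest to that of all genes, -0.04.

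The 9 genes did not vary as 1 block over the 4 libraries. After each gene's log2 CPM was centred on its own mean, the smallest root mean square difference between members was 0.0767, between Fosl2 and Jun, followed by 0.111 between Fos and Junb. The largest was 0.627, between Fosb and Egr1, and Egr1 differed from every other member by 0.396 or more. The measure is not scaled for range, so genes that vary little score as alike. Egr1 and Fosb had the widest ranges of the 9 (2.46-fold and 2.16-fold from lowest to highest library). Among 10300 protein-coding genes averaging 5 CPM or more, the patterns most like that of Egr1, the member with the widest range, included Slc8a1 (0.0863), Myo16 (0.104), Tbc1d24 (0.11) and LOC115488623 (0.135). In each of these, as in Egr1, Smad4 Knockout 2 was the lowest library. Slc8a1, a sodium and calcium exchanger, had 9.24 and 4.33 CPM in the Smad4 Knockout libraries and 6.16 and 9.09 CPM in Control. With 4 libraries such a likeness is a description of 1 pattern.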

How the data were processed

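Libraries were made from 0.5 µg of total RNA each with a stranded total RNA kit, per the labels' protocols. The tools listed are StringTie 2.1.3b, HISAT2 2.1.0, Trimmomatic and bcl2fastq 2.20.0, with build mm10, per the submitters' processing notes. The sources used here give neither the counting step nor its strand setting. The deposited files give a whole-number read count per gene, treated as an estimated count because StringTie is the quantifier named, and a TPM and an FPKM value per gene, per the file headers. The deposited TPM were used for levels and for an alternative test. The deposited FPKM were not used further. The columns of Control 2 carry its title with an added 2. In 1 file an extra FPKM column of another sample, equal to that sample's own at all 45777 genes, was not used. Symbols replaced by spreadsheet dates (26) were restored from gene IDs. Of 226 listed names, 224 matched. Coordinates are RefSeq's in GRCm38.

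Counts were tested with edgeR 4.0.16 in R 4.3.3 (quasi-likelihood F-test, TMM, filterByExpr with a minimum count of 10, genotype as the only term). Benjamini-Hochberg adjustment ran over 18115 genes. SE is the fold change over the root of F, and 95% intervals use edgeR's moderated degrees of freedom. Replicates varied with a common dispersion of 0.068 (26.1% as a coefficient of variation). Replicate numbers follow sample order and pair nothing. The scripts were tested on simulated counts. Alternatives comprised RLE size factors, unfiltered counts, DESeq2 1.42.0, limma 3.58.1 on log2(TPM + 1) or log2(TPM + 0.1) where 2 or more libraries reached 1 TPM, robust moderation, no mitochondrial, ribosomal protein and histone genes, and each library left out.

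Members and lists were chosen with earlier results of these data known. Named genes are all 9 members and, per list, up to 4 genes with the smallest p and the most abundant one. For Egr1, the member with the widest range, genes are taken from the 5 nearest in pattern. Some genes these rules select are not reported here. Cldn18, Muc6, Gkn1, Tff1, Tff2, Srf and Ddit3 were named after their values were seen. Promoter sequences are RefSeq's.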

Additional observations from a re-analysis of the deposited data

How the results depend on the processing

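In edgeR 0 genes passed, the 9 factors included, while 1153 had an unadjusted p under 0.05. DESeq2 called 127 genes, 96 higher and 31 lower in the Smad4 Knockout libraries, and 0 of the 9. Leaving out 1 library at a time gave 0 to 92 called genes, the 92 without Smad4 Knockout 1 (48 higher, 44 lower) and 1 without Control 1, and 0 of the 9 in each case. With RLE factors, no filter, limma, robust moderation or the reduced gene set 0 genes were called. In 97 values of single factors over 11 alternatives, 0 passed the threshold, the lowest adjusted p was 0.335 (Egr1 without Smad4 Knockout 1, edgeR), and 92 kept the direction. The other 5 changed sign, and the cause was not tested: Fosl2 (0.036 without Control 2, 0.085 without Smad4 Knockout 2), Jund (0.055 without Smad4 Knockout 1) and Egr1 (0.092 without Control 2, 0.38 without Smad4 Knockout 2). With 1 library left out, Fosl2 ranged from -0.18 to 0.085, Jund from -0.17 to 0.055, Egr1 from -0.93 to 0.38, Fos from -0.45 to -0.34, Fosl1 from -0.91 to -0.61, Junb from -0.49 to -0.23, Fosb from -0.90 to -0.39, Jun from -0.28 to -0.09 and Atf3 from 0.03 to 0.31. A lone library is then assumed to vary like the other group. Fosb reached 1 TPM in Control 2 only (1.17 TPM), short of the 2 libraries required, and was not tested by limma. No paired analysis was possible because the labels give the genotypes no shared replicate numbers. Depth limits Fosb most, which had 104 counts in Smad4 Knockout 1.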
